A study of Mus musculus with 27 samples.

Results

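The comparison described here was between cortex and hippocampus of mice that had received no antibody. Its members were the 10 PBS libraries of the 27 RNA-seq libraries at hand, 5 from cortex and 5 from hippocampus, chosen by the treatment and tissue named in the labels. Both tissues came from the same 5 of the 14 mice with such libraries, numbered 14, 32, 33, 38 and 74, so each hippocampus had a cortex of its own animal beside it. All were male C57Bl/6J wild-type mice, 8 weeks old at surgery, and every one carried an osmotic pump that delivered PBS at 0.25 µl/h into the right lateral ventricle for 14 days. The tissue was taken, according to the study's methods, from the hemisphere opposite the cannula. The remaining libraries came from mice infused with α-IgLON5 autoantibodies or with control IgG, and the control IgG mice were used below to look at the same tissue difference in other animals. The labels name the cell type as neurons, but these were pieces of dissected tissue, and glial transcripts were read in all 10 libraries. The astrocyte gene Slc1a2 had 3724 ± 151 CPM in cortex and 3486 ± 365 CPM in hippocampus (mean ± SD, n = 5 mice each). The myelin gene Mobp had 455 ± 76 CPM in cortex and 393 ± 121 CPM in hippocampus, and the microglial gene Csf1r 112 ± 2.21 CPM in cortex and 103 ± 10.2 CPM in hippocampus. In such bulk samples fewer cells of a type and less RNA per cell cannot be told apart.

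The hippocampus is a folded sheet of simpler cortex with a fixed circuit. Granule cells of the dentate gyrus send mossy fibres to mossy cells of the hilus and to CA3 pyramidal cells, CA3 projects to CA1, and the small CA2 field lies between them. New granule neurons are added in the dentate gyrus of adult rodents. The neocortex is built of layers, in which neurons of layers 2 to 4 mainly connect within the cortex, those of layer 5 project to the brainstem and other far targets, and those of layer 6 project to the thalamus. Both areas share the same broad classes of glutamatergic, GABAergic and glial cells, and differ in the transcription factors, receptors, channels and guidance molecules of their projection neurons.

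Total counts per library ran from 30352765 to 37034675 in cortex and from 29098828 to 58550621 in hippocampus. Levels are given as CPM, the counts of a gene scaled to a common library total, after correction by the trimmed mean of M values (TMM), and values for single mice are listed in the order 14, 32, 33, 38 and 74. The first principal component of log2 CPM held 43.2% of the variance and separated all 5 cortex from all 5 hippocampus libraries. Both libraries of mouse 38 stood apart on the second component, which held 12.4% of the variance. The cortex of mouse 38 had the highest summed level of meningeal and fibroblast markers, 474 CPM against 151.3 to 238.8 CPM in the other cortex libraries. Its hippocampus had the highest level among hippocampus libraries as well, 372.7 CPM against 136.1 to 297.5 CPM. Both libraries of mouse 14 stood apart on the third component, which held 9.8% of the variance (30.5 in cortex and 32.4 in hippocampus). Those of mouse 74 lay at its other end (-20.3 in cortex and -25.3 in hippocampus). The libraries of mouse 14 had the highest shares of mitochondrial counts (6.25% in cortex and 6.29% in hippocampus, against 4.59% to 5.87% in the other 8 libraries). The hippocampus library of mouse 74 held pituitary transcripts. Summed over 10 pituitary genes it reached 3912 CPM, against 4.22 to 101.5 CPM in the other 4 hippocampus libraries and 3.96 to 95.7 CPM in cortex. Growth hormone (Gh) gave 63.3, 8.54, 1.28, 6.49 and 50.7 CPM in cortex and 67.1, 11.1, 1.23, 5.43 and 2975 CPM in hippocampus. The part of these features in the results below was not tested, and the counts without mouse 14, 38 or 74 stand beside the main ones.

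Differences were tested within mice with edgeR's quasi-likelihood test, and all log2 fold changes are hippocampus over cortex, so that positive values mean higher in hippocampus. Of 20271 genes tested, 574 were more than 2-fold higher in hippocampus (2.83% of the genes tested) and 564 were more than 2-fold higher in cortex (2.78%), each at an adjusted p below 0.05. Protein-coding genes made up 406 of the first group and 388 of the second. Without the fold threshold, 2613 genes (12.9%) were higher in hippocampus and 2891 (14.3%) were higher in cortex. The counts of gene lists below stand beside these shares of all genes. The direction was the same in all 5 mice for 542 of the 574 and for 540 of the 564 genes. All 5 hippocampus libraries lay above all 5 cortex libraries for 467 of the 574, where this held for 8.61% of all genes tested, and all 5 cortex libraries lay above for 454 of the 564, against 9.19% of all genes. The fold change exceeded 8 for 52 genes higher in hippocampus and for 39 genes higher in cortex. Without mouse 14 the counts were 523 and 498, without mouse 38 they were 653 and 586, and without mouse 74 they were 514 and 510. The median log2 fold change over all genes tested was 0.01.

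**Figure D1:**
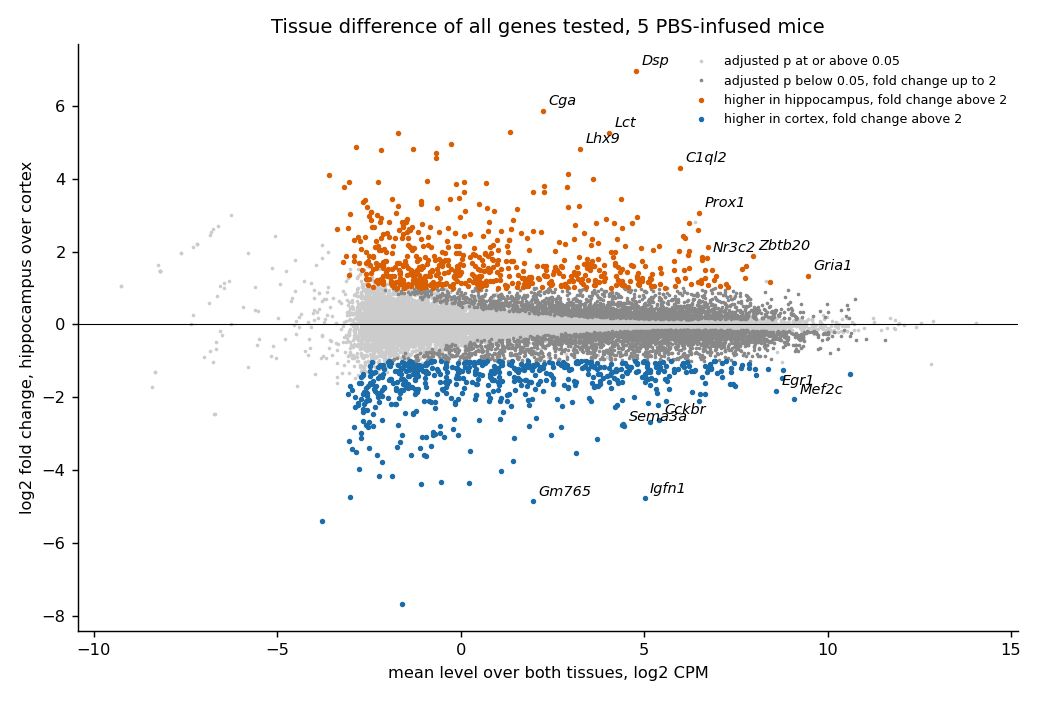
Each point is 1 gene tested in the 5 PBS mice, with its mean level over both tissues (log2 CPM) on the horizontal axis and its log2 fold change, hippocampus over cortex, on the vertical axis; 25 genes without a count in these libraries are not drawn. Orange marks the 574 genes more than 2-fold higher in hippocampus and blue the 564 more than 2-fold higher in cortex, and both groups hold genes below 1 CPM as well as abundant ones.

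Genes of dentate granule cells, among them Dsp and C1ql2, were among the 10 with the largest excess in hippocampus. Dsp, which encodes the desmosomal plaque protein desmoplakin (chr13:38151294-38198577, GRCm38), was read at 0.344, 0.236, 0.0672, 0.725 and 0.715 CPM in cortex and 92.6, 36.5, 45.2, 25.8 and 74.5 CPM in hippocampus. It was below 1 CPM in all 5 cortex libraries and had the largest difference of the 10 genes ranked on each side among those of at least 1 CPM in the higher tissue (log2 fold change 6.97 ± 0.28 (SE), adjusted p = 1.3e-07). C1ql2, which encodes a secreted C1q-like protein of mossy fibre synapses (chr1:120340582-120343174), was read at 7.76, 4.34, 7.26, 6.37 and 4.89 CPM in cortex and 146, 109, 103, 110.5 and 129.6 CPM in hippocampus. It was 4.30 ± 0.12 log2 units higher in hippocampus (adjusted p = 2.0e-08), and the lowest hippocampus value lay far above the highest cortex value. Lhx9, a LIM-homeodomain transcription factor (chr1:138825186-138848577), gave 0.845, 0.975, 0.37, 0.567 and 0.467 CPM in cortex and 18.8, 24.5, 14.6, 11.5 and 22.4 CPM in hippocampus (log2 fold change 4.83 ± 0.16 (SE), adjusted p = 4.3e-08). Lct, the gene for lactase (chr1:128284756-128328318), gave 0.814, 0.68, 0.907, 0.725 and 0.825 CPM in cortex and 60.5, 26.8, 23.3, 14.6 and 35.5 CPM in hippocampus (log2 fold change 5.27 ± 0.19 (SE), adjusted p = 7.8e-08). In both genes the groups did not overlap, and mouse 38 had the lowest hippocampus value.

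Other genes of the 10 with the largest excess in hippocampus were Rtl3, a gene derived from a retrotransposon, the olfactory receptor gene Olfr550, the phospholipase gene Pla2g2f, D330025C20Rik and the keratin gene Krt2. Their log2 fold changes ran from 4.12 (Krt2) to 5.28 (Rtl3), and their highest adjusted p was 2.0e-05. Krt2 rested on 0.504 to 1.29 CPM in cortex and 12.4 to 15.4 CPM in hippocampus. Olfr550 and Pla2g2f were read at no more than 2.33 and 2.01 CPM in any library, and their cortex libraries held between 0 and 3 reads each. D330025C20Rik is annotated on the strand opposite Kcng2, and because the strand setting of the counting is not given in the sources used here, reads of the pair may not be told apart.

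Markers of dentate granule cells were higher in hippocampus almost throughout. Of 10 markers tested, 9 were higher in hippocampus and 0 in cortex, where 12.9% and 14.3% of all genes were, and their median log2 fold change was 1.63 against 0.01 over all genes. Prox1, the homeodomain factor that maintains granule cell identity, gave 21.3, 19.9, 16.5, 18.9 and 18.5 CPM in cortex and 226, 134, 154, 127 and 172 CPM in hippocampus (log2 fold change 3.07 ± 0.10 (SE), adjusted p = 4.3e-08). The hippocampus of mouse 14 held the most Prox1 and that of mouse 38 the least, and all lay well above cortex. Tdo2, which encodes tryptophan 2,3-dioxygenase, was 3.63 ± 0.16 log2 units higher (adjusted p = 1.8e-07) and the cation channel gene Trpc6 1.64 ± 0.09 (adjusted p = 1.1e-06). Calbindin (Calb1), which granule cells share with many cortical neurons, did not pass the test, with 148 ± 26.7 CPM in cortex and 162 ± 27.8 CPM in hippocampus (adjusted p = 0.42). Summed over the list, the hippocampus held 1166, 738, 820.4, 707 and 969 CPM and the cortex of the same mice 449, 442, 433, 319 and 424 CPM.

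Pyramidal cell markers of the CA fields were less uniform. Of 10 CA1 markers, 6 were higher in hippocampus and 3 in cortex (median log2 fold change 1.33). Fibcd1, which encodes a membrane protein with a fibrinogen-like domain, gave 13.8, 31.4, 17.3, 16 and 36.5 CPM in cortex and 96, 141, 97.2, 91.5 and 148 CPM in hippocampus (log2 fold change 2.39 ± 0.10 (SE), adjusted p = 1.7e-07), and mice 32 and 74 had the highest values in both tissues. Spink8 rose from 1.38 CPM in cortex to 7.79 CPM in hippocampus (log2 fold change 2.53 ± 0.21 (SE), adjusted p = 1.1e-05). Zbtb20, a zinc finger repressor, rose from 107 to 394 CPM (log2 fold change 1.89 ± 0.16 (SE), adjusted p = 1.6e-05). Wfs1, Ccn3 and Mpped1, which upper cortical neurons also express, were higher in cortex instead (-0.73, -0.52 and -0.42; adjusted p = 0.015, 0.041 and 0.019). Without mouse 74, 1 of these 10 markers was higher in cortex. Wfs1 did not pass without mouse 14, nor Ccn3 and Mpped1 without mouse 14, 32 or 74, and Ccn3 had an adjusted p of 0.118 without the animal as a block.

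For CA2, 5 of 9 tested markers were higher in hippocampus and 3 in cortex, with a median of 0.33. The adhesion protein gene Amigo2 (4.6 to 5.95 CPM in cortex and 13.1 to 26.2 CPM in hippocampus) and the neurotrophin gene Ntf3 (2.14 to 2.66 CPM in cortex and 6.61 to 7.65 CPM in hippocampus) were higher in hippocampus by 1.73 ± 0.13 and 1.60 ± 0.11 log2 units, and their ranges did not overlap. Rgs14, a regulator of G protein signalling that is concentrated in CA2, differed by 0.33 ± 0.09 (adjusted p = 0.022), with overlapping ranges, and did not pass without mouse 14, 38 or 74. The secreted protein gene Ccdc3 was lower in hippocampus (log2 fold change -1.14 ± 0.12 (SE), adjusted p = 4.7e-05). Of 8 CA3 markers, 5 were higher in hippocampus and 1 in cortex (median 0.92). Iyd, which encodes iodotyrosine deiodinase, gave 0.219, 0.266, 0.235, 0.063 and 0.22 CPM in cortex and 4.33, 3.3, 2.81, 2.28 and 2.47 CPM in hippocampus (log2 fold change 3.89 ± 0.22 (SE), adjusted p = 1.1e-06), a low but separate level. St18, a zinc finger factor (2.65 ± 0.21, adjusted p = 8.5e-06), and the postsynaptic scaffold gene Homer3 (2.18 ± 0.17, adjusted p = 9.7e-06) followed. Coch went the other way, with 28.1 to 39.3 CPM in cortex and 5.66 to 10.7 CPM in hippocampus (log2 fold change -2.08 ± 0.12 (SE), adjusted p = 1.1e-06).

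All 6 markers of hilar mossy cells differed, 5 of them higher in hippocampus (median 1.48). Without mouse 74, 4 were higher in hippocampus and 0 in cortex. Ajap1, the member higher in cortex (-0.28, adjusted p = 0.031), did not pass without mouse 14, 32, 33 or 74, nor Calcrl (0.53, adjusted p = 0.015) without mouse 14, 32 or 74. Calretinin (Calb2) gave 17.4, 16, 15.5, 11.9 and 15.7 CPM in cortex and 47.5, 73.5, 74.3, 77.9 and 72.3 CPM in hippocampus (log2 fold change 2.16 ± 0.14 (SE), adjusted p = 2.5e-06), and the hippocampus of mouse 14 was the lowest of the 5. The same library had the lowest summed mossy cell level, 96.17 CPM against 127.6 to 132.5 CPM in the others, and the highest summed level of granule cell markers. Galanin (Gal) reached at most 0.821 CPM, so its log2 fold change of 3.06 ± 0.54 rested on few reads. Among 12 genes of adult neurogenesis, 6 were higher in hippocampus and 1 in cortex (median 0.51). Igfbpl1, a marker of early neuroblasts, gave 0.313, 0.266, 0.302, 0.662 and 0.495 CPM in cortex and 5.35, 2.77, 1.88, 1.75 and 3.39 CPM in hippocampus (log2 fold change 2.83 ± 0.30 (SE), adjusted p = 6.8e-05). Eomes, the T-box factor of intermediate progenitors, was read at 0.0939 to 0.414 CPM in cortex and 0.386 to 2.1 CPM in hippocampus (log2 fold change 2.28 ± 0.34 (SE), adjusted p = 6.4e-04). The proliferation gene Mki67 was 1.00 ± 0.16 log2 units higher in hippocampus (adjusted p = 8.4e-04). Dcx, which encodes the microtubule-binding protein doublecortin, was higher in cortex in all 5 mice (45.8 to 63.3 CPM in cortex and 30.6 to 45.4 CPM in hippocampus; log2 fold change -0.61 ± 0.05 (SE), adjusted p = 1.8e-05).

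**Figure D2:**
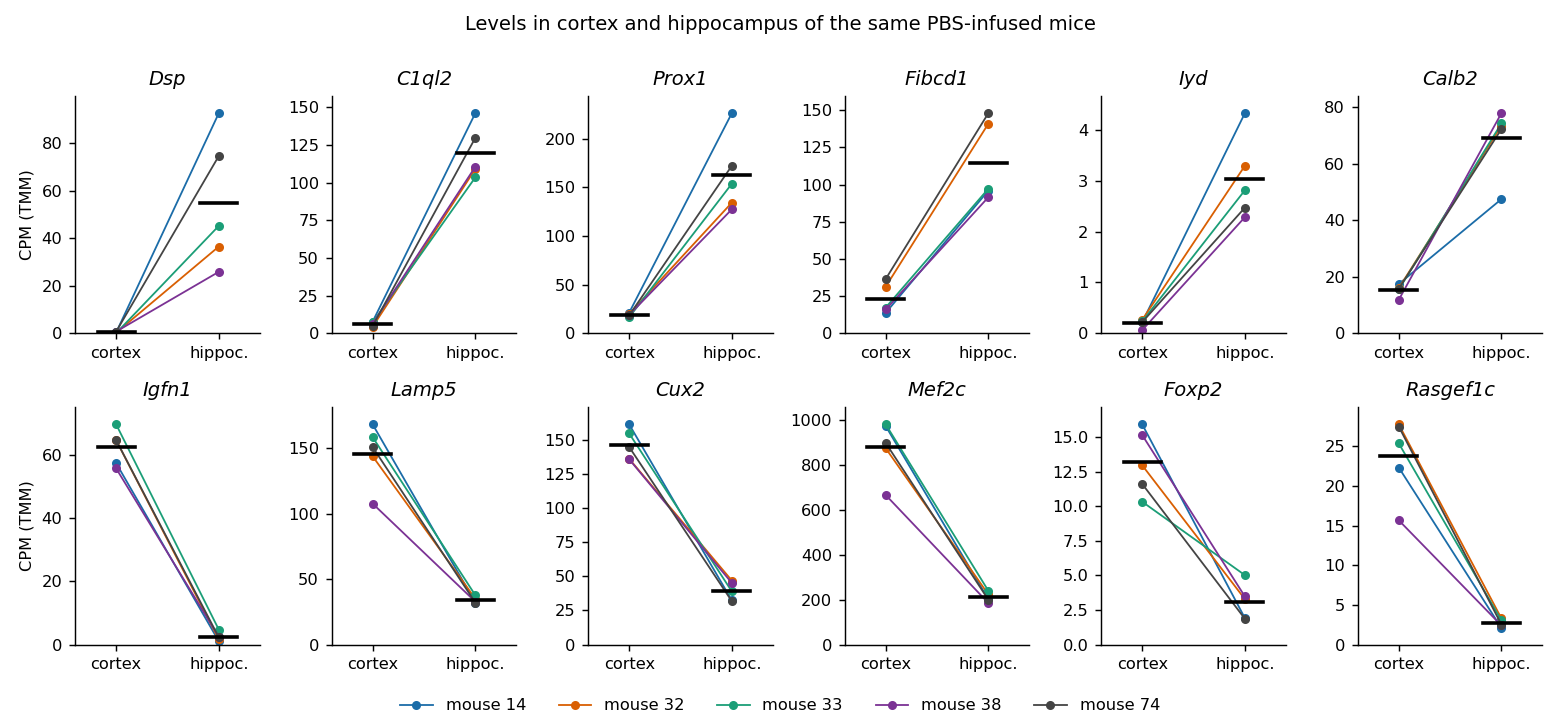
Each panel shows 1 gene in CPM on a linear axis from 0, with the cortex and hippocampus of the same mouse joined by a line and the mean of 5 mice as a black bar. The upper 6 genes lay higher in hippocampus and the lower 6 higher in cortex in every mouse, without overlap between the tissues, and the hippocampus of mouse 14 had the highest Dsp, C1ql2 and Prox1 and the lowest Calb2.

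On the cortical side the largest differences were in a mixed set of genes. Igfn1, which encodes an immunoglobulin-like and fibronectin type III domain protein known from muscle (chr1:135953578-136006342), was read at 57.3, 64.6, 69.6, 55.7 and 64.6 CPM in cortex and 1.02, 1.62, 4.72, 2.4 and 2.28 CPM in hippocampus (log2 fold change -4.77 ± 0.21 (SE), adjusted p = 1.8e-07). Its cortex values lay within a narrow range, and its hippocampus values were all below 5 CPM. Gm765, a predicted protein-coding gene (chr6:98235708-98342754), gave 10.2, 8.51, 10.2, 3.37 and 5.61 CPM in cortex and 0.0682, 0.459, 0.352, 0.208 and 0.118 CPM in hippocampus (log2 fold change -4.85 ± 0.27 (SE), adjusted p = 9.8e-07), and mouse 38 had the lowest cortex value. Rasgef1c, a guanine nucleotide exchange factor for small GTPases, was read at 15.7 to 27.8 CPM in cortex and 2.08 to 3.3 CPM in hippocampus (log2 fold change -3.14 ± 0.11 (SE), adjusted p = 5.5e-08). Dkkl1, a dickkopf-like gene, was read at 10.5 to 19.3 CPM in cortex and 0.895 to 1.93 CPM in hippocampus (log2 fold change -3.53 ± 0.20 (SE), adjusted p = 1.2e-06). These genes separated the tissues without overlap.

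Genes best known from lymphocytes were among the 10 largest as well. Ighg2c, an immunoglobulin heavy chain constant gene (chr12:113285325-113288932), gave 2.94, 2.31, 2.28, 1.61 and 2.06 CPM in cortex and 0.136, 0.18, 0.117, 0.0297 and 0.0471 CPM in hippocampus (log2 fold change -4.35 ± 0.26 (SE), adjusted p = 1.7e-06). Trbc2, a constant gene of the T cell receptor beta chain (chr6:41546730-41548352), gave 5.13, 4.14, 3.83, 2.99 and 3.96 CPM in cortex and 0.341, 0.344, 0.264, 0.119 and 0.141 CPM in hippocampus (log2 fold change -4.02 ± 0.20 (SE), adjusted p = 4.9e-07). Both were higher in cortex in all 5 mice, at levels of a few CPM, and all reads of Ighg2c in hippocampus libraries numbered 1 to 11 per library. The others were the long non-coding RNA A830009L08Rik, the actin-binding repeat gene Xirp2, Nxf7 of the RNA export factor family, and AC132106.1, annotated antisense to Slc22a3. Their log2 fold changes ran from -4.33 (AC132106.1) to -3.33 (Nxf7), with a highest adjusted p of 1.2e-04, and each was read at below 8 CPM in all libraries.

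Markers of cortical layers 2 to 4 and of layer 6 were higher in cortex, whereas those of layer 5 were not. Of 10 genes of layers 2 to 4, 8 were higher in cortex and 1 in hippocampus (median -1.01). Cux2, the homeodomain factor of upper layer neurons, gave 161, 136, 155, 136 and 145 CPM in cortex and 32.3, 46.8, 38.9, 45.1 and 31.7 CPM in hippocampus (log2 fold change -1.92 ± 0.11 (SE), adjusted p = 1.2e-06). Lamp5, a membrane protein gene of upper layers and of a class of interneurons, gave 168, 144, 159, 108 and 151 CPM in cortex and 32.1, 35.1, 37.7, 32.8 and 32.1 CPM in hippocampus (log2 fold change -2.09 ± 0.09 (SE), adjusted p = 1.4e-07). The Wnt agonist gene Rspo1 was -2.57 ± 0.23 (adjusted p = 1.9e-05), otoferlin (Otof) -1.35 ± 0.12 (adjusted p = 1.7e-05) and Cux1 -0.97 ± 0.08 (adjusted p = 8.0e-06). The exception was Scnn1a, a sodium channel subunit gene, which was higher in hippocampus (6.09 to 7.16 CPM in cortex and 10.7 to 13.1 CPM in hippocampus; log2 fold change 0.82 ± 0.08 (SE), adjusted p = 2.7e-05).

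All members of the layer 6 list that passed, 8 of 10, were higher in cortex (median -1.03). Foxp2, a forkhead factor of corticothalamic neurons, gave 15.9, 12.9, 10.3, 15.1 and 11.6 CPM in cortex and 1.91, 3.28, 5.01, 3.47 and 1.86 CPM in hippocampus (log2 fold change -2.12 ± 0.22 (SE), adjusted p = 6.1e-05). Cplx3, a complexin gene of subplate-derived neurons, was read at 26.1 to 37.4 CPM in cortex and 6.24 to 13.4 CPM in hippocampus (log2 fold change -1.58 ± 0.14 (SE), adjusted p = 1.9e-05). Tbr1, the T-box factor that specifies layer 6, was read at 132 to 176 CPM in cortex and 45 to 79.2 CPM in hippocampus (log2 fold change -1.30 ± 0.12 (SE), adjusted p = 2.6e-05). Tle4 did not pass, with 69.8 ± 5.41 CPM in cortex and 66.7 ± 3.7 CPM in hippocampus (adjusted p = 0.52). In the list for layer 5, 5 of 8 genes were higher in hippocampus and 1 in cortex (median 0.34). Bcl11b (CTIP2), which marks subcortical projection neurons and also granule and CA1 cells, was read at 81.8 to 90.7 CPM in cortex and 154 to 206 CPM in hippocampus (log2 fold change 1.05 ± 0.07 (SE), adjusted p = 4.9e-06). The thyroid hormone-binding crystallin gene Crym was read at 52.7 to 84.6 CPM in cortex and 139.6 to 212 CPM in hippocampus (log2 fold change 1.34 ± 0.07 (SE), adjusted p = 6.1e-07). Deptor, an inhibitor of mTOR, was higher in cortex (log2 fold change -1.03 ± 0.12 (SE), adjusted p = 1.5e-04). Fezf2, the factor that specifies layer 5 output neurons, did not pass (43.4 ± 5.71 CPM in cortex and 54 ± 20.9 CPM in hippocampus; adjusted p = 0.36).

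Forebrain transcription factors split evenly, with 13 of 30 higher in hippocampus and 13 higher in cortex (median 0.02). Over all genes tested the shares were 12.9% and 14.3%. Mef2c, a MADS-box factor of activity-dependent synapse regulation, gave 973, 874, 981, 666 and 898 CPM in cortex and 202, 223, 239, 185 and 199 CPM in hippocampus (log2 fold change -2.06 ± 0.07 (SE), adjusted p = 4.3e-08), and the tissues did not overlap. On the hippocampal side, Lhx9 was followed by the LIM-only genes Lmo1 (1.60 ± 0.10, adjusted p = 2.3e-06) and Lmo3 (0.99 ± 0.11, adjusted p = 9.5e-05). Some paralogs lay on opposite sides. Emx1 was -0.95 ± 0.08 (adjusted p = 1.8e-05) and Emx2 0.54 ± 0.09 (adjusted p = 0.0011), and Nr2f1 (COUP-TFI) was -0.41 ± 0.05 (adjusted p = 1.6e-04) while Nr2f2 (COUP-TFII) was 0.70 ± 0.11 (adjusted p = 7.1e-04).

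**Figure D3:**
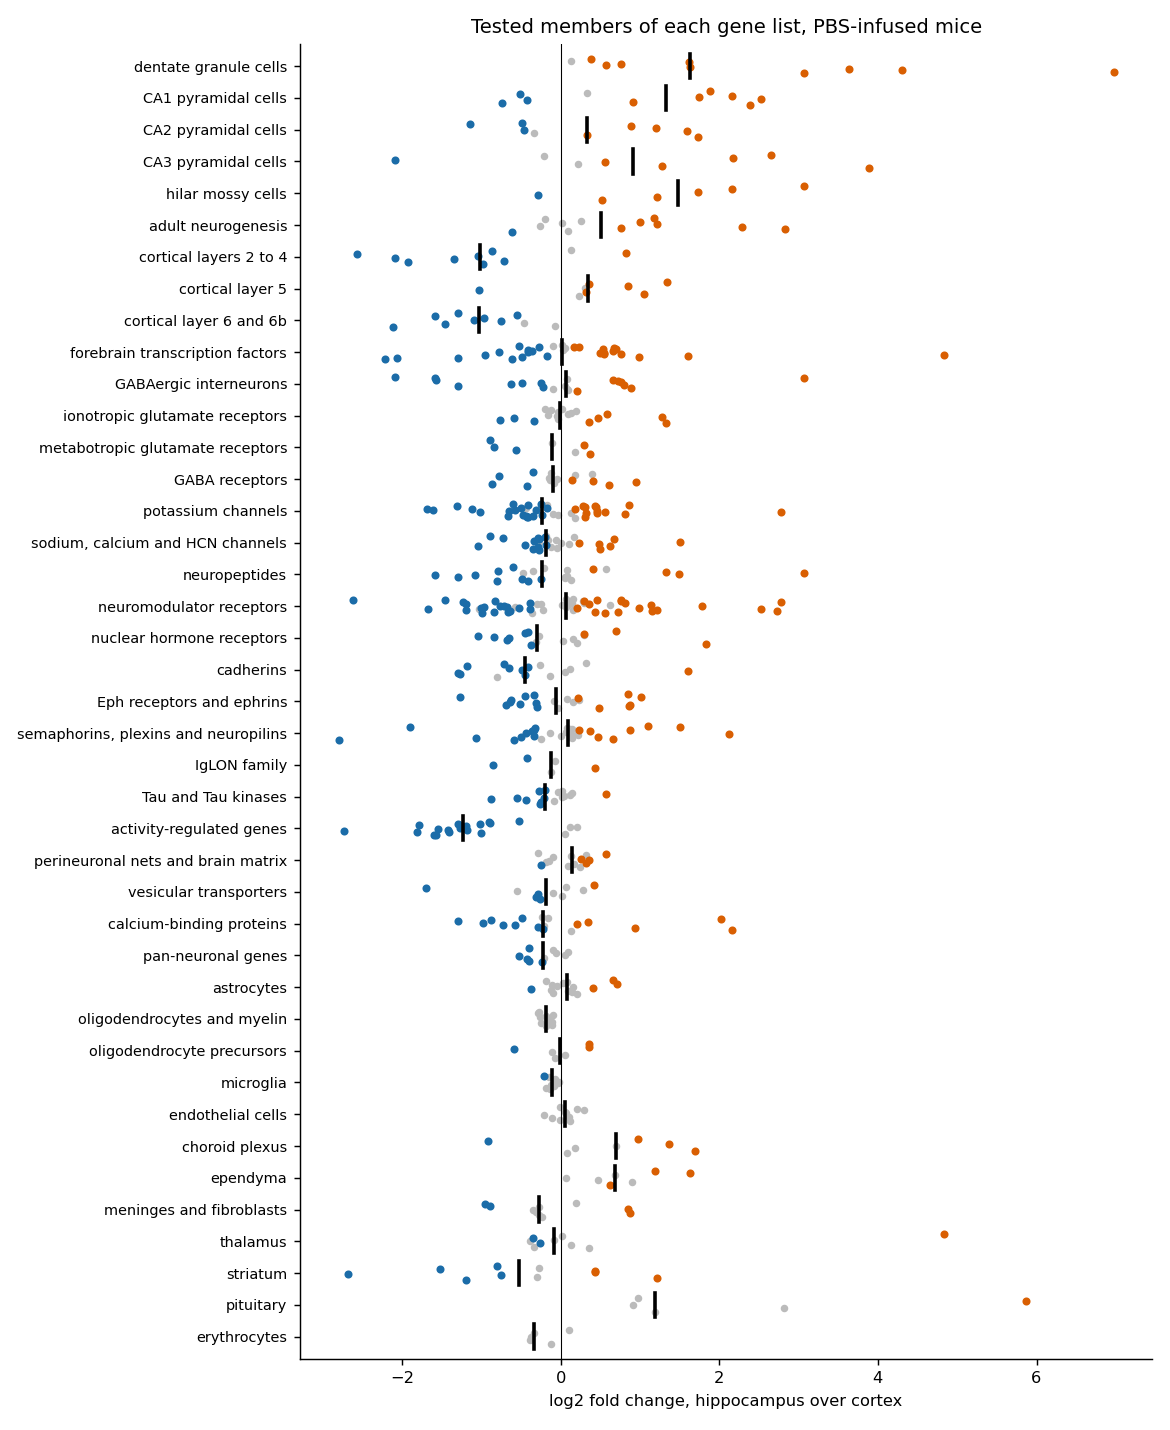
Each point is a tested member of a gene list, placed by its log2 fold change, hippocampus over cortex; orange and blue points passed an adjusted p of 0.05 as higher in hippocampus and in cortex, grey points did not pass, and the black tick is the median of the list. The medians of the dentate, CA1 and mossy cell lists lay at 1.63, 1.33 and 1.48, those of layers 2 to 4, layer 6 and the activity-regulated genes at -1.01, -1.03 and -1.23, and those of myelin, microglia and endothelial genes between -0.18 and 0.06.

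Activity-regulated genes, which neurons transcribe within minutes to hours of synaptic stimulation, were lower in hippocampus almost throughout. Of 20 genes, 17 were higher in cortex and 0 in hippocampus, 14 of them more than 2-fold, and the median log2 fold change was -1.23. The zinc finger factor Egr1 was read at 1058, 574, 712, 486 and 221 CPM in cortex and 198, 162, 197, 145 and 93.9 CPM in hippocampus (log2 fold change -1.82 ± 0.13 (SE), adjusted p = 4.9e-06). Its relative Egr2 was read at 57.4, 46, 58, 19.9 and 5.88 CPM in cortex and 8.35, 6.02, 6.62, 3.29 and 1.72 CPM in hippocampus (log2 fold change -2.73 ± 0.15 (SE), adjusted p = 8.8e-07). The tissues did not overlap for Egr1 and overlapped for Egr2. In both genes the cortex values spread several-fold between mice, with mouse 74 lowest, and each mouse had more in cortex than in hippocampus.

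Fos, a subunit of the AP-1 factor, gave 78.5, 107, 111, 45.5 and 34.4 CPM in cortex and 28, 29.4, 25.4, 19.6 and 16.3 CPM in hippocampus (log2 fold change -1.57 ± 0.13 (SE), adjusted p = 1.4e-05). The neuron-specific factor Npas4 gave 38.6, 92.9, 59, 41.5 and 62.5 CPM in cortex and 13.2, 27.5, 17.9, 22.2 and 18.7 CPM in hippocampus (log2 fold change -1.54 ± 0.11 (SE), adjusted p = 6.0e-06). Arc, whose product acts at dendritic spines, was read at 571, 448, 568, 204 and 153 CPM in cortex and 202, 164, 163, 95.7 and 68.7 CPM in hippocampus (log2 fold change -1.40 ± 0.09 (SE), adjusted p = 3.2e-06). Nptx2, which encodes a secreted pentraxin that clusters AMPA receptors, was read at 89.1, 61.1, 71, 45.1 and 44.2 CPM in cortex and 24.7, 16.5, 15.2, 16.8 and 15.6 CPM in hippocampus (log2 fold change -1.78 ± 0.10 (SE), adjusted p = 1.3e-06). Fos, Npas4 and Nptx2 separated the tissues without overlap, whereas the highest Arc value of hippocampus, in mouse 14, exceeded the lowest of cortex, in mouse 74. All cortex libraries lay above all hippocampus libraries for 6 of the 20 genes, against 9.19% of all genes, while 16 of the 20 were higher in cortex in every mouse. Summed over the list, cortex held 4123, 2933, 3512, 2071 and 1311 CPM and hippocampus 1383, 1223, 1249, 998 and 889 CPM. The excess of cortex within a mouse thus ran from 1.48-fold in mouse 74 to 2.98-fold in mouse 14. The 3 genes that did not pass were Nr4a3, Bdnf and Fosl2. Nr4a3 had 88.4 ± 46.6 CPM in cortex and 90.8 ± 13.7 CPM in hippocampus (adjusted p = 0.62), with the lowest cortex value in mouse 74. Bdnf, a neurotrophin gene, had 38.1 ± 13.7 CPM in cortex and 40.6 ± 10.7 CPM in hippocampus (adjusted p = 0.67). Fosl2 had 88.2 ± 40.3 CPM in cortex and 84.7 ± 12 CPM in hippocampus (adjusted p = 0.84).

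**Figure D4:**
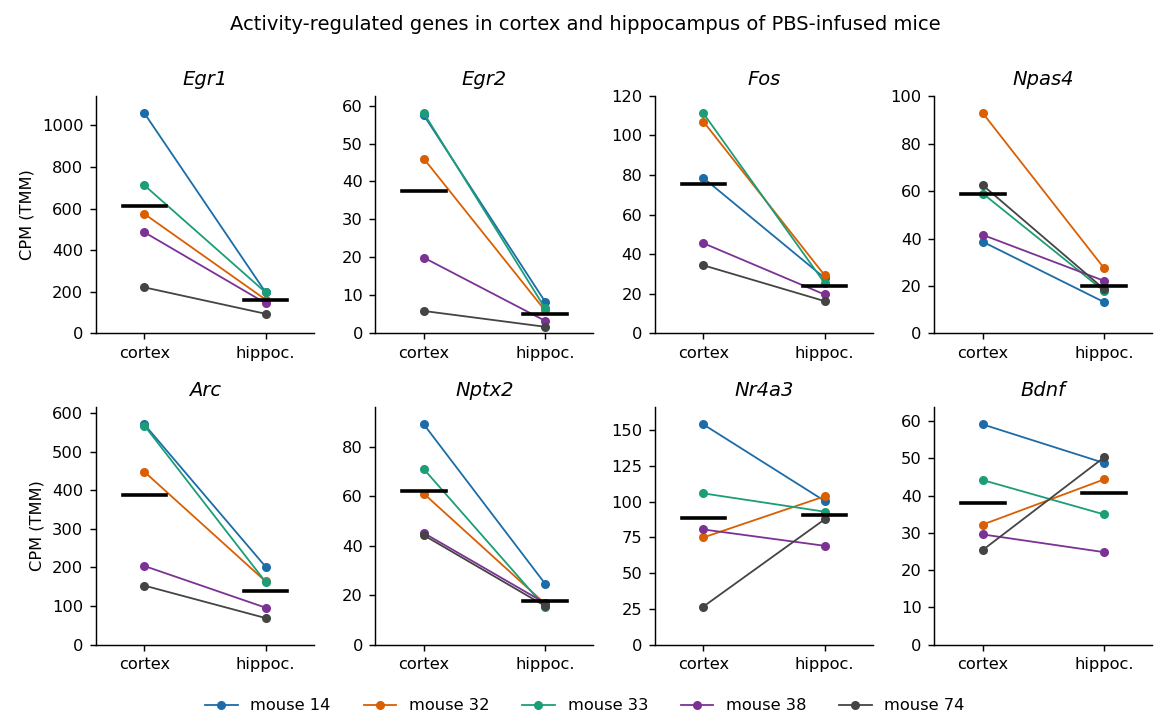
Panels show 8 activity-regulated genes in CPM on linear axes from 0, with cortex and hippocampus of a mouse joined by a line and the mean of 5 mice as a black bar. Egr1, Egr2, Fos, Npas4, Arc and Nptx2 fell from cortex to hippocampus in all 5 mice, with mouse 74 starting lowest in all of these but Npas4, while the lines of Nr4a3 and Bdnf crossed.

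Because most of these genes differed in the same direction, their promoter letters are shown. The windows are RefSeq sequences of GRCm38.p6 that run from 250 bases before to 50 bases after a transcription start, printed 5′ to 3′ on the strand of the gene. Capitals mark the half-site TGACG of the cAMP response element (CRE), searched on both strands and so also as CGTCA, the full element TGACGTCA, which contains both half-sites, and the CArG box, the binding motif of serum response factor. Of the 20 genes, 15 matched the table. The following were chosen as widely studied members of the list that passed the test, together with Nr4a3, which did not.
Fos: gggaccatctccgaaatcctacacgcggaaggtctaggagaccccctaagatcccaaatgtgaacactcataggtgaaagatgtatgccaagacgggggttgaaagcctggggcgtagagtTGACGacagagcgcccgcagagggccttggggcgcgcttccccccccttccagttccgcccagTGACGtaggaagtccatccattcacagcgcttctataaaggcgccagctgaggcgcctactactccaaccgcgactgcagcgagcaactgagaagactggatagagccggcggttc
Egr2: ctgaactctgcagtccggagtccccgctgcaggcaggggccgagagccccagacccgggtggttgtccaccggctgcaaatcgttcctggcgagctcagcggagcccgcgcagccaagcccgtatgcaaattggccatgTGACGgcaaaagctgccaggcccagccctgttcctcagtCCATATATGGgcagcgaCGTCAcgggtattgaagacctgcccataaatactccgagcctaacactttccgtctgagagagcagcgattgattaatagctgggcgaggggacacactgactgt
Npas4: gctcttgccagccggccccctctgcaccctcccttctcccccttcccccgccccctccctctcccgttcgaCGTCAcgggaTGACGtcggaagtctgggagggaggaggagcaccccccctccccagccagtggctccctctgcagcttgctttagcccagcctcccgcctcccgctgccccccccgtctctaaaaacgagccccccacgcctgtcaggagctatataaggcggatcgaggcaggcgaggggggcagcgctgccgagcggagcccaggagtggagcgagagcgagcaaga
Nr4a1: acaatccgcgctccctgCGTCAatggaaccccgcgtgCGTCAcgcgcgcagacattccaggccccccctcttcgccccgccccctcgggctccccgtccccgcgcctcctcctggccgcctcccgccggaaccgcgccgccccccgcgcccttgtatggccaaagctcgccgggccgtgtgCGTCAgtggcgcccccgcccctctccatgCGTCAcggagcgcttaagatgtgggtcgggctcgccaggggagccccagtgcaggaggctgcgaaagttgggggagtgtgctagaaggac
Dusp1: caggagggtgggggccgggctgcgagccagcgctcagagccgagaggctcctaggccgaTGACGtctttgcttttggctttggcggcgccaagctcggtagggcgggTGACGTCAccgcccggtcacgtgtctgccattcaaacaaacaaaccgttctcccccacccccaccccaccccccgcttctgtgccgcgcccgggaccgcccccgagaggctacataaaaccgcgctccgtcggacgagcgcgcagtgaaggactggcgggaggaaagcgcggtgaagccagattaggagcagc
Nr4a3: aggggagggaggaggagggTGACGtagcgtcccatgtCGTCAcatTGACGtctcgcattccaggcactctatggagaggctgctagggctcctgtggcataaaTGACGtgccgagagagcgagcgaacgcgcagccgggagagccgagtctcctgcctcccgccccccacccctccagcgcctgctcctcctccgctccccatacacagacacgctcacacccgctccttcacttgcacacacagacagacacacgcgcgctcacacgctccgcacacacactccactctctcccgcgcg

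The windows lie at chr12:85473640-85473939 (+ strand) for Fos, chr10:67537619-67537918 (+ strand) for Egr2, chr19:4989922-4990221 (- strand) for Npas4, chr15:101266596-101266895 (+ strand) for Nr4a1, chr17:26508423-26508722 (- strand) for Dusp1 and chr4:48045055-48045354 (+ strand) for Nr4a3. Egr2 has 5 windows in the table, and the first of those with the most matches is printed. A CRE half-site stood in a window of 12 of the 15 matched genes, or in 14 of their 26 windows (53.8%), and in 20.8% of all 32851 windows. A full CRE stood in the windows of Btg2 and Dusp1 and in 1.79% of all windows, and a CArG box in windows of Egr2 and in 1.63% of all windows. Nr4a3 held 4 half-sites and Fos 2, so genes that differed between tissues and a gene that did not pass both carried these letters. A match is a description of the sequence alone, and nothing was measured here at these sites.

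Among interneuron genes, several subtype markers differed, while the genes that all GABAergic neurons share differed little. Of 20 genes, 7 were higher in hippocampus and 8 in cortex (median 0.07). Gad1, which encodes the main GABA-synthesising enzyme, was read at 305 to 342 CPM in cortex and 351 to 416 CPM in hippocampus (log2 fold change 0.21 ± 0.06 (SE), adjusted p = 0.018). Gad2 and the vesicular transporter gene Slc32a1 did not pass, with log2 fold changes of 0.09 and -0.10. The subtype factor Lhx6 did not pass either (0.08). Vasoactive intestinal peptide (Vip) gave 53.6, 48.5, 54.3, 34.4 and 49.7 CPM in cortex and 19.8, 18.9, 19.1, 21.9 and 17.5 CPM in hippocampus (log2 fold change -1.30 ± 0.11 (SE), adjusted p = 1.7e-05), and was higher in cortex without overlap. Gad1 did not pass without mouse 32 (adjusted p = 0.102). Parvalbumin (Pvalb), which did not pass without mouse 32, 33 or 74, differed little (21.3 to 27.3 CPM in cortex and 19.4 to 25.1 CPM in hippocampus; log2 fold change -0.23 ± 0.07 (SE), adjusted p = 0.036) and somatostatin (Sst) did not pass (167 ± 21 CPM in cortex and 174 ± 25 CPM in hippocampus; adjusted p = 0.76). Adarb2 (0.88 ± 0.09, adjusted p = 3.3e-05), the neurogliaform marker Ndnf (0.81 ± 0.07, adjusted p = 2.2e-05) and Nos1, the neuronal nitric oxide synthase gene (0.76 ± 0.07, adjusted p = 2.3e-05), were higher in hippocampus. Prox1, which interneurons of the caudal ganglionic eminence also express, belongs to this list and to that of granule cells.

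Neuropeptide genes were higher in cortex for 9 of 22 tested and in hippocampus for 4 (median -0.23). Corticotropin-releasing hormone (Crh) was read at 4.03 to 8.2 CPM in cortex and 1.6 to 2.21 CPM in hippocampus (log2 fold change -1.58 ± 0.17 (SE), adjusted p = 5.8e-05). The neurokinin B gene Tac2 was read at 4.41 to 6.26 CPM in cortex and 2.25 to 3.68 CPM in hippocampus (log2 fold change -1.07 ± 0.16 (SE), adjusted p = 7.0e-04). Vgf, a granin-like precursor, was read at 274 to 401 CPM in cortex and 193 to 215 CPM in hippocampus (log2 fold change -0.60 ± 0.09 (SE), adjusted p = 4.4e-04). Neurotensin (Nts) and gastrin-releasing peptide (Grp) went the other way. Nts was read at 2.16 to 3.78 CPM in cortex and 4.97 to 12.1 CPM in hippocampus (log2 fold change 1.49 ± 0.26 (SE), adjusted p = 0.0016). Grp was read at 6.93 to 12.7 CPM in cortex and 20.8 to 33.9 CPM in hippocampus (log2 fold change 1.33 ± 0.19 (SE), adjusted p = 5.2e-04). Cholecystokinin (Cck) and neuropeptide Y (Npy) were -0.25 and -0.49 (adjusted p = 0.045 and 9.3e-04), with overlapping ranges, and Cck passed in 1 of the 5 fits that each left out 1 mouse, the fit without mouse 38.

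Of 18 ionotropic glutamate receptor genes, 5 were higher in hippocampus and 3 in cortex (median -0.00). Gria1, which encodes the AMPA receptor subunit GluA1, was read at 409, 433, 378, 341 and 435 CPM in cortex and 1015, 1001, 1002, 867 and 1144 CPM in hippocampus (log2 fold change 1.33 ± 0.05 (SE), adjusted p = 1.3e-07). It was the only AMPA subunit gene that differed by more than 2-fold. Gria2 was 0.36 ± 0.06, Gria3 -0.34 ± 0.05 and Gria4 -0.76 ± 0.09 (adjusted p = 0.0017, 7.4e-04 and 1.6e-04). Per kilobase of annotated exon, mean CPM was 66 in cortex and 166 in hippocampus for Gria1 and 49.7 and 64 for Gria2. It was 30.5 in cortex and 24.1 in hippocampus for Gria3 and 22.4 and 13.3 for Gria4. On this scale Gria1 and Gria2 stood closer to each other in cortex than in hippocampus. In mean CPM itself they stood closer in hippocampus (1006 and 994) than in cortex (399 and 772). Grik4, a kainate receptor subunit of CA3, was read at 18.3 to 22.6 CPM in cortex and 40.2 to 68.6 CPM in hippocampus (log2 fold change 1.28 ± 0.10 (SE), adjusted p = 9.7e-06). The NMDA receptor subunit gene Grin2a was 0.58 ± 0.06 (adjusted p = 6.7e-05). Grin1, the obligatory NMDA subunit, and Grin2b did not pass, with -0.16 and 0.10 (adjusted p = 0.16 and 0.24).

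Metabotropic glutamate receptor genes were higher in hippocampus for 2 of 7 and in cortex for 3 (median -0.11). Grm5, a group I gene, was higher in hippocampus (0.29 ± 0.05, adjusted p = 0.0018), and Grm3, Grm4 and Grm8 were higher in cortex, from -0.89 (Grm8) to -0.57 (Grm3). GABA receptor genes divided 4 to 4 among 16 (median -0.10), none by more than 2-fold. Gabra5, whose α5 subunit forms extrasynaptic receptors, was read at 55.5, 67.6, 63.3, 61.5 and 77.2 CPM in cortex and 132, 144, 112, 92.7 and 151 CPM in hippocampus (log2 fold change 0.95 ± 0.08 (SE), adjusted p = 1.8e-05). Gabra2 was also higher in hippocampus (0.61 ± 0.05, adjusted p = 1.4e-05), while Gabra3 (-0.86 ± 0.15, adjusted p = 0.0019) and the δ subunit gene Gabrd (-0.77 ± 0.09, adjusted p = 1.5e-04) were higher in cortex.

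Potassium channel genes were higher in cortex for 20 of 39 and in hippocampus for 13 (median -0.24). Over all genes tested the shares were 14.3% and 12.9%. Kcng2, which encodes a silent Kv6 subunit, gave 2.69, 3.64, 2.62, 3.09 and 4.48 CPM in cortex and 23.3, 21.1, 18.2, 20.1 and 30.9 CPM in hippocampus (log2 fold change 2.78 ± 0.09 (SE), adjusted p = 4.3e-08), the largest difference of the list, with D330025C20Rik on its opposite strand. Several members of the ether-à-go-go family were higher in cortex, among them Kcnh7 (log2 fold change -1.11 ± 0.09 (SE), adjusted p = 1.0e-05). Kcnh5 was read at 14.8 to 23.5 CPM in cortex and 4.98 to 6.71 CPM in hippocampus (log2 fold change -1.69 ± 0.15 (SE), adjusted p = 1.5e-05). Kcnh4 was read at 16.6 to 19.8 CPM in cortex and 5.16 to 6.72 CPM in hippocampus (log2 fold change -1.61 ± 0.09 (SE), adjusted p = 1.1e-06). The silent subunit genes Kcnv1 (-1.30) and Kcnf1 (-1.01) were higher in cortex as well (adjusted p = 6.1e-06 and 5.6e-05). Kcnip2, an auxiliary subunit of A-type channels, was higher in hippocampus (0.86 ± 0.08, adjusted p = 2.2e-05). Of 27 sodium, calcium and HCN channel genes, 12 were higher in cortex and 6 in hippocampus (median -0.18). Cacna1h, the T-type channel Cav3.2, was read at 46.8 to 59.3 CPM in cortex and 122 to 183 CPM in hippocampus (log2 fold change 1.50 ± 0.08 (SE), adjusted p = 7.8e-07). The sodium channel β4 gene Scn4b was read at 26.5 to 32.2 CPM in cortex and 10.5 to 18.1 CPM in hippocampus (log2 fold change -1.05 ± 0.11 (SE), adjusted p = 5.2e-05). These were the members that differed by more than 2-fold.

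Receptors of neuromodulators differed often and in both directions. Of 54 genes tested, 18 were higher in hippocampus and 19 in cortex, 7 and 7 of them by more than 2-fold (median 0.07). Over all genes tested the shares were 12.9% and 14.3%, and by more than 2-fold they were 2.83% and 2.78%. The Y2 receptor gene Npy2r gave 5.95, 6.65, 6.05, 6.52 and 6.29 CPM in cortex and 42.8, 56.9, 34.8, 27.6 and 60.1 CPM in hippocampus (log2 fold change 2.77 ± 0.15 (SE), adjusted p = 8.4e-07). The serotonin receptor gene Htr4 gave 2.07, 1.77, 2.72, 2.87 and 2.06 CPM in cortex and 17.9, 16.4, 13.6, 11.6 and 16.4 CPM in hippocampus (log2 fold change 2.72 ± 0.17 (SE), adjusted p = 1.9e-06). The dopamine receptor gene Drd5 was read at 0.437 to 1.45 CPM in cortex and 3.78 to 9 CPM in hippocampus (log2 fold change 2.53 ± 0.29 (SE), adjusted p = 1.2e-04). None of the 3 overlapped between the tissues. The cholecystokinin receptor gene Cckbr gave 98.6, 71.7, 75.9, 58.6 and 58.9 CPM in cortex and 8.08, 12.6, 14.5, 15.5 and 8.59 CPM in hippocampus (log2 fold change -2.62 ± 0.18 (SE), adjusted p = 4.3e-06) and was the member with the largest excess in cortex. It was followed by the noradrenaline receptor gene Adra1b (-1.67 ± 0.13, adjusted p = 6.6e-06), the neurotensin receptor gene Ntsr1 (-1.45 ± 0.21, adjusted p = 4.3e-04) and the Crh receptor gene Crhr1 (-1.23 ± 0.10, adjusted p = 1.2e-05). Receptor and ligand thus lay on the same side for Crh and Crhr1, and on opposite sides for Nts and Ntsr1. Muscarinic M1 (Chrm1), read at 211 ± 25.6 CPM in cortex and 220.1 ± 12.4 CPM in hippocampus, and the adenosine receptor gene Adora1, read at 173 ± 22.6 CPM in cortex and 174 ± 3.93 CPM in hippocampus, did not pass.

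Nuclear hormone receptor genes were higher in hippocampus for 3 of 16 and in cortex for 7 (median -0.29). The mineralocorticoid receptor gene Nr3c2 gave 39, 48.7, 45.9, 49.7 and 47 CPM in cortex and 196, 183, 149, 127 and 169 CPM in hippocampus (log2 fold change 1.83 ± 0.11 (SE), adjusted p = 1.7e-06). Its relative, the glucocorticoid receptor gene Nr3c1, which binds the same adrenal steroid, was read at 123 to 139 CPM in cortex and 91.6 to 112 CPM in hippocampus and was higher in cortex (log2 fold change -0.37 ± 0.05 (SE), adjusted p = 1.8e-04). Rorb, a layer 4 factor, was the member with the largest excess in cortex (log2 fold change -1.05 ± 0.07 (SE), adjusted p = 4.3e-06).

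Cell surface families were read beside all genes tested, of which 14.3% were higher in cortex and 12.9% in hippocampus. Cadherin genes were higher in cortex for 8 of 15 and in hippocampus for 1 (median -0.45). That 1 gene was Cdh9, an adhesion molecule of the mossy fibre to CA3 synapse, at 13.4, 14.2, 13.1, 8.98 and 14.2 CPM in cortex and 42.1, 41.6, 39.6, 27.3 and 43.9 CPM in hippocampus (log2 fold change 1.61 ± 0.06 (SE), adjusted p = 5.5e-08). Cdh7, Cdh6 and Cdh18 were higher in cortex by more than 2-fold (-1.29, -1.27 and -1.18, adjusted p = 8.8e-07, 0.001 and 9.0e-05). Eph receptors and ephrins divided into 6 higher in hippocampus and 9 higher in cortex of 20 (median -0.06). The ligand gene Efna5 was read at 19.9 to 31.9 CPM in cortex and 6.07 to 14.3 CPM in hippocampus (log2 fold change -1.27 ± 0.18 (SE), adjusted p = 4.9e-04). Efna4 (1.01 ± 0.28, adjusted p = 0.02, not passing without mouse 14, 32 or 74), Epha6, Epha7 and the ephrin gene Efnb3 were higher in hippocampus (the last 3 with 0.87, 0.87 and 0.85, adjusted p = 3.9e-06, 1.8e-04 and 2.3e-06).

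Genes of semaphorin signalling lay on both sides. Of 30 genes, 8 were higher in hippocampus and 10 in cortex (median 0.10), against 12.9% and 14.3% of all genes. Sema3a, a secreted repellent, gave 42, 36.6, 45.1, 32.1 and 34.7 CPM in cortex and 4.94, 7.41, 6.51, 6.02 and 2.94 CPM in hippocampus (log2 fold change -2.80 ± 0.16 (SE), adjusted p = 1.1e-06). Its receptor subunit gene Nrp1 gave 32.2, 26.6, 27.1, 37 and 26.2 CPM in cortex and 85.3, 88.7, 80.0, 75.8 and 89 CPM in hippocampus (log2 fold change 1.50 ± 0.10 (SE), adjusted p = 2.5e-06), so that ligand and receptor were each without overlap but in opposite directions. Nrp2 (1.10 ± 0.09, adjusted p = 1.1e-05) and Sema5a (2.13 ± 0.11, adjusted p = 6.8e-07) were higher in hippocampus, and Sema3f (-1.07 ± 0.15, adjusted p = 3.5e-04) and Plxnd1 (-1.90 ± 0.12, adjusted p = 2.4e-06) in cortex.

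IgLON genes encode GPI-anchored adhesion molecules of the neuronal surface, and IgLON5 was the target of the antibodies given to other mice of the study. Iglon5 itself was read at 37.8, 29.4, 27.8, 28.9 and 28.7 CPM in cortex and 30.6, 24.9, 30.6, 26.1 and 27.2 CPM in hippocampus and did not pass (log2 fold change -0.13 ± 0.07 (SE), adjusted p = 0.22). Its cortex level was highest in mouse 14, and the other 9 libraries lay between 24.9 and 30.6 CPM. Lsamp was read at 365, 369, 363, 340.0 and 362 CPM in cortex and 417, 548, 510.3, 424 and 534 CPM in hippocampus, and was higher in hippocampus (log2 fold change 0.43 ± 0.07 (SE), adjusted p = 7.4e-04). Ntm was read at 297, 281, 278, 221 and 269 CPM in cortex and 142, 138, 176, 157 and 133 CPM in hippocampus, and was higher in cortex (log2 fold change -0.85 ± 0.09 (SE), adjusted p = 4.7e-05). Negr1 was read at 234 to 333 CPM in cortex and 202 to 254 CPM in hippocampus, and was higher in cortex as well (log2 fold change -0.42 ± 0.06 (SE), adjusted p = 6.7e-04). Opcml did not pass (253 ± 18.6 CPM in cortex and 241 ± 22.5 CPM in hippocampus; adjusted p = 0.34). Lsamp and Ntm did not overlap between the tissues, whereas Negr1 did. Per kilobase of exon, mean CPM was 33.3 in cortex and 18.5 in hippocampus for Ntm, 28.8 in cortex and 21.4 in hippocampus for Negr1, 20.9 in cortex and 28.3 in hippocampus for Lsamp, 17.5 in cortex and 16.6 in hippocampus for Opcml and 11.6 in cortex and 10.6 in hippocampus for Iglon5. On this scale Iglon5 was the lowest of the family in both tissues, Ntm led in cortex and Lsamp in hippocampus. The scale divides by the length of all annotated exons of a gene, whichever transcripts are expressed. In mean CPM itself Lsamp led in both tissues (360 in cortex and 487 in hippocampus).

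Tau, encoded by Mapt, is the microtubule-associated protein of axons on which the study centred. Mapt was read at 658, 587, 613, 545 and 617 CPM in cortex and 479, 501, 539, 509.8 and 500.4 CPM in hippocampus and was higher in cortex by a small margin (log2 fold change -0.25 ± 0.06 (SE), adjusted p = 0.01), without overlap. Without mouse 74 the difference was -0.24 (adjusted p = 0.0517). Among 17 genes of Tau and its kinases, 9 were higher in cortex and 1 in hippocampus, none by more than 2-fold (median -0.20). Over all genes tested the shares were 14.3% and 12.9%. Without mouse 74, 6 of the 17 were higher in cortex and 1 in hippocampus. Both activators of Cdk5, p39 (Cdk5r2, -0.87 ± 0.07, adjusted p = 1.3e-05) and p35 (Cdk5r1, -0.43 ± 0.06, adjusted p = 5.0e-04), were higher in cortex, and Cdk5 itself did not pass (-0.08, adjusted p = 0.35). Camk2b was higher in hippocampus (695 to 878 CPM in cortex and 996 to 1394 CPM in hippocampus; log2 fold change 0.57 ± 0.06 (SE), adjusted p = 3.9e-05).

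Of 10 genes that all neurons express, 5 were higher in cortex and 0 in hippocampus (median -0.22), with Snap25 at -0.39 ± 0.07 (adjusted p = 0.0017) and Map2 at 0.06 (adjusted p = 0.47). Of 17 calcium-binding protein genes, 8 were higher in cortex and 5 in hippocampus (median -0.23). Cabp7, read at 23.4 to 36.5 CPM in cortex and 94.3 to 144 CPM in hippocampus, stood on the hippocampal side beside Calb2 (log2 fold change 2.02 ± 0.13 (SE), adjusted p = 2.3e-06). Hippocalcin (Hpca) ranged from 247 to 382 CPM in cortex and 359.7 to 903 CPM in hippocampus (log2 fold change 0.94 ± 0.14 (SE), adjusted p = 5.0e-04). Necab3 was the member with the largest excess in cortex (log2 fold change -1.30 ± 0.12 (SE), adjusted p = 2.0e-05). Among 10 vesicular and plasma membrane transporter genes, 4 were higher in cortex and 1 in hippocampus, with the vesicular glutamate transporter gene Slc17a7 at -0.31 ± 0.06 (adjusted p = 0.0036) and the neuronal glutamate transporter gene Slc1a1 at 0.42 ± 0.05 (adjusted p = 7.4e-05). Without mouse 74, 1 of these transporter genes was higher in cortex. Genes of perineuronal nets and brain matrix were higher in hippocampus for 4 of 14 and in cortex for 1 (median 0.15), led by Crtac1 (0.57 ± 0.06, adjusted p = 4.7e-05). Without mouse 74, 2 were higher in hippocampus.

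Among glial and vascular lists, those of myelin, endothelial and microglial genes had 1 gene that passed, where 12.9% of all genes were higher in hippocampus and 14.3% in cortex. None of 12 myelin genes passed (median -0.18), and their summed levels overlapped, with 3028 to 4116 CPM in cortex and 2292 to 4630.0 CPM in hippocampus. None of 10 endothelial genes passed (median 0.06), and of 10 microglial genes only Fcrls passed, with overlapping ranges (log2 fold change -0.21 ± 0.07 (SE), adjusted p = 0.042), and it did so in 1 of the 5 fits without 1 mouse, the fit without mouse 14. Of 15 astrocyte genes, 3 were higher in hippocampus and 1 in cortex (median 0.08). Gfap, the intermediate filament gene of astrocytes, gave 243, 219, 244, 386 and 237 CPM in cortex and 594, 354, 378, 388 and 451 CPM in hippocampus (log2 fold change 0.71 ± 0.14 (SE), adjusted p = 0.0035). Agt, the angiotensinogen gene, was read at 16.6 to 28.5 CPM in cortex and 24.4 to 39.6 CPM in hippocampus (log2 fold change 0.66 ± 0.07 (SE), adjusted p = 5.1e-05). Both had overlapping ranges. Aldh1l1 was higher in cortex without overlap (58.9 to 67.5 CPM in cortex and 47.1 to 52 CPM in hippocampus; log2 fold change -0.37 ± 0.05 (SE), adjusted p = 2.5e-04). Oligodendrocyte precursor genes passed for 2 higher in hippocampus and 1 higher in cortex of 6 (median -0.01), and no erythrocyte gene of 5 passed (median -0.33). The precursor gene higher in cortex did not pass without mouse 33, 38 or 74.

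Lists of neighbouring tissues were read to see what the dissections held. Transthyretin (Ttr), the abundant secretory product of the choroid plexus, was read at 1.69 ± 1.07 CPM in cortex and 1.76 ± 1.18 CPM in hippocampus (adjusted p = 0.79). Of 7 genes of that tissue tested, 3 were higher in hippocampus and 1 in cortex, and the leading member was the klotho gene Kl (3.38 to 7.5 CPM in cortex and 15.5 to 18.6 CPM in hippocampus; log2 fold change 1.69 ± 0.14 (SE), adjusted p = 1.3e-05). The gene higher in cortex did not pass without mouse 14, 38 or 74. The summed choroid plexus level was 7.695 to 15.73 CPM in cortex and 23.77 to 29.81 CPM in hippocampus, without overlap. Ependymal genes passed for 3 of 7 in hippocampus, and for 1 without mouse 74. Ak7 and Foxj1 did not pass without mouse 32 or 74, nor Foxj1 without mouse 14. The summed ependymal level of hippocampus was 22.57 CPM in mouse 32 and 25.75 CPM in mouse 74 against 7.625 to 10.3 CPM in the other mice, and that of cortex was 7.438 to 8.808 CPM. Of 9 thalamic genes tested, Lhx9 was higher in hippocampus, and 2 were higher in cortex, none of these without mouse 74. The thalamic list had a summed level of 146 to 213 CPM in cortex and 149.7 to 205 CPM in hippocampus. Of 10 striatal genes tested, 5 were higher in cortex and 3 in hippocampus. Drd1 and Penk were among those higher in cortex (-1.19 and -0.81, adjusted p = 1.8e-04 and 4.3e-04). Log2 fold changes of the tested striatal genes ran from -2.68 to 1.22. The summed striatal level was 209.9 to 255.4 CPM in cortex and 168.1 to 189.7 CPM in hippocampus. Meningeal and fibroblast genes divided 2 to 2 among 10. Of the 5 pituitary genes tested, Cga, the common glycoprotein hormone subunit gene, passed the test with 0.282, 0.0591, 0, 0.0315 and 0.22 CPM in cortex and 0.546, 0.0984, 0, 0 and 46 CPM in hippocampus (log2 fold change 5.87 ± 1.00 (SE), adjusted p = 0.002), and without mouse 74 no pituitary gene passed.

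The size of the tissue difference varied between mice. Over the 574 genes higher in hippocampus the median log2 ratio within a mouse ran from 1.31 in mouse 38 to 1.72 in mouse 14, and over the 564 genes higher in cortex from -1.23 in mouse 38 to -1.64 in mouse 14. Mouse 38 thus had the smallest and mouse 14 the largest differences on both sides. Both mice had libraries that stood apart, as described above, and the part of this in the size of the differences was not tested. Without any 1 mouse, 425 of the 574 and 408 of the 564 genes stayed above 2-fold at an adjusted p below 0.05 in all 5 such fits.

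To see whether these differences were present in other animals, the same comparison was made in the 4 control IgG mice with both tissues, which share no library with the PBS mice. There, 415 genes (2.05%) were more than 2-fold higher in hippocampus and 361 (1.78%) were more than 2-fold higher in cortex, and without the fold threshold the shares were 7.4% and 8.82% of 20271 genes. Without mouse 15 the counts over 2-fold were 276 and 303, and the 415 and the overlaps below rest on all 4 mice. Of the 574 PBS genes, 557 (97.0%) had the same direction and 381 (66.4%) also had an adjusted p below 0.05 there. For the 564 genes higher in cortex these numbers were 534 (94.7%) and 367 (65.1%). The genes called in both groups were 303 in hippocampus, or 52.8% of the PBS and 73.0% of the control IgG calls, and 280 in cortex, or 49.6% and 77.6%. Differences were smaller in size in control IgG mice for 79.6% of the genes higher in hippocampus and for 79.8% of those higher in cortex, with median log2 fold changes of 1.22 and -1.09 against 1.54 and -1.43 in the PBS mice, in which the genes had been selected.

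**Figure D5:**
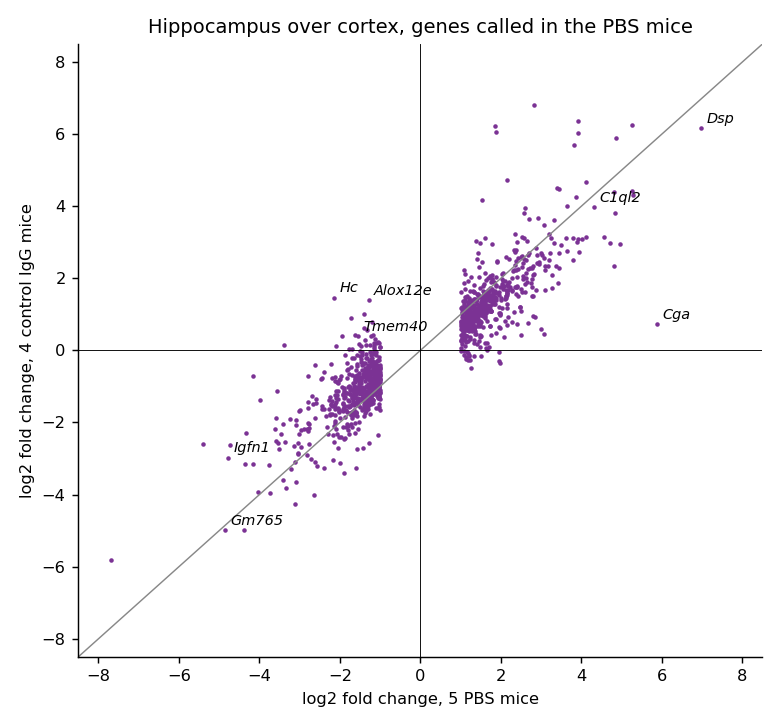
Each point is 1 of the 1138 genes called in the PBS mice, with its log2 fold change, hippocampus over cortex, in 5 PBS mice on the horizontal axis and in 4 control IgG mice on the vertical axis; the grey line marks equal values. Most points share the sign, and Cga, which rested on mouse 74, stands away from the line with 5.87 in PBS mice and 0.72 in control IgG mice.

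Dsp, C1ql2 and Prox1 were higher in the hippocampus of control IgG mice by 6.16 ± 0.17, 3.97 ± 0.14 and 2.55 ± 0.25 log2 units (adjusted p = 1.3e-06, 2.5e-06 and 3.0e-04). The log2 fold changes of Gm765, Cux2 and Egr1 there were -4.99 ± 0.16, -1.45 ± 0.14 and -1.70 ± 0.11 (adjusted p = 2.1e-06, 2.8e-04 and 3.5e-05). Of the 20 activity-regulated genes, 18 were higher in cortex and 0 in hippocampus in control IgG mice, with a median of -1.31. Dentate granule cell markers passed for 6 higher in hippocampus and 0 higher in cortex of 10 (median 1.09; 1.63 in PBS mice). CA1 markers passed for 7 higher in hippocampus and 0 higher in cortex of 10 (median 1.16; 1.33 in PBS mice). CA2 markers passed for 2 higher in hippocampus and 1 higher in cortex of 9 (median 0.05; 0.33 in PBS mice) and CA3 markers for 4 higher in hippocampus and 2 higher in cortex of 8 (median 0.27; 0.92 in PBS mice). Mossy cell markers passed for 5 higher in hippocampus and 1 higher in cortex of 6 (median 1.21; 1.48 in PBS mice). Genes of layers 2 to 4 passed for 1 higher in hippocampus and 8 higher in cortex of 10 (median -1.08; -1.01 in PBS mice) and those of layer 6 for 0 higher in hippocampus and 4 higher in cortex of 10 (median -0.48; -1.03 in PBS mice). The differences between the PBS and control IgG mice in these counts and medians were not tested. A test of the difference itself for each gene, the interaction of tissue and treatment over 18 libraries, called 0 genes in edgeR (0.0% of 20271), with 1631 genes at an unadjusted p below 0.05 and a smallest adjusted p of 0.53, and 4 genes in DESeq2. Among the genes called in PBS mice, the smallest unadjusted interaction p values were those of Alox12e, Igfn1, Tmem40, Hc and Fnbp1l. Igfn1, for example, was -4.77 ± 0.21 in PBS and -2.97 ± 0.29 in control IgG mice, and Fnbp1l, an actin regulator of membrane curvature, -1.33 ± 0.09 and -0.71 ± 0.10. These 5 genes were chosen for their difference between the groups of mice, and none passed the adjustment in edgeR. The 4 genes that DESeq2 called, named after their values were seen, were Prss8, Mas1, Hc and Ace. Prss8, which did not pass in PBS mice (-0.44, adjusted p = 0.28), and Hc had interaction values of 2.84 and 3.68 in DESeq2, control IgG minus PBS mice (adjusted p = 0.0283 for each). The difference of Mas1, a receptor gene of the angiotensin system, was 0.94 ± 0.07 in PBS mice and 0.13 ± 0.15 in control IgG mice. That of Ace, the gene of angiotensin-converting enzyme, was -0.97 ± 0.11 and -0.14 ± 0.13. The adjusted interaction p by DESeq2 was 0.0283 for Mas1 and 0.0455 for Ace. In PBS mice Mas1 was read at 19.1, 19.4, 16.2, 12.7 and 18.3 CPM in cortex and 33.1, 36.5, 28.5, 25.7 and 40.5 CPM in hippocampus. Ace was read at 18.4, 24.4, 28.6, 41.8 and 25.9 CPM in cortex and 8.9, 14.6, 19.1, 19.4 and 9.84 CPM in hippocampus. Mas1 separated the tissues without overlap. Ace was higher in cortex in each mouse, but its highest hippocampus values (19.1 and 19.4 CPM) exceeded its lowest cortex value (18.4 CPM).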

How the data were processed

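RNA was sequenced by the authors from poly(A) libraries made with a stranded kit on a NovaSeq instrument, and reads were aligned with STAR (listed as 1.4.0 in the submitters' processing notes) to GRCm38. The authors deposited 1 table of raw counts per gene and library, not normalized. The counting program, its annotation and its strand setting are not given in the sources used here, so genes that overlap on opposite strands may share reads. Gene positions come from GENCODE M21 (GRCm38).

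A gene was kept where 4 or more of all 27 libraries held 10 counts of it (20271 genes). Differences were tested with edgeR 4.0.16 (R 4.3.3), TMM scaling, the quasi-likelihood F test with the animal as a block, and Benjamini-Hochberg adjustment over all genes tested. Genes were called at an adjusted p below 0.05 and a fold change above 2. Levels are CPM computed from the counts, and log2 fold changes come from the fit, with SE as the fold change over the root of F. Total counts per library were 29098828 or more in the 10 PBS libraries and 19385642 or more in all 27, and intervals and counts near 0 reflect sequencing depth as well as tissue. The 5 replicates of a tissue were separate mice, and the same mouse number starts both library titles, so tissues are paired by animal. The correlation of a mouse's deviations from the tissue means was 0.058 to 0.213, and in 3 of the 5 mice both libraries correlated best with each other. With 5 pairs an exact sign-flip test cannot give a two-sided p below 0.0625, so summed levels of lists are described only. No 2 libraries agreed within sampling noise. DESeq2 1.42.0 was an alternative. The paired fit was tested on simulated data, where it recovered the changed genes, but the share of false calls lay above the nominal level, so calls near an adjusted p of 0.05 are less firm than that value states.

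Named genes were, in each direction, the 10 largest differences among called genes with the same direction in all 5 mice and at least 1 CPM in the higher tissue, up to 3 called members a direction and up to 2 members not called of each list, all IgLON genes and Mapt, and up to 5 called genes with the smallest p of the interaction with control IgG. Some genes that met this rule are not reported here. Further members were named after their values were seen. Members and lists were chosen with earlier results of these data known. Lists overlap in part. Summed levels include members too low to be tested.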

Additional observations from a re-analysis of the deposited data

Results flagged for a closer look

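In 16 of 140 groups of 5 libraries (11.4%, where chance gives about 1 group in 20), 1 library lay far from the others by Dixon's criterion. The groups were the summed levels of the gene lists and single genes in each tissue.

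The cortex of mouse 38 accounted for 9 of them. Its summed levels were the lowest of the 5 cortex libraries for granule cell markers (319.2 CPM), GABA receptors (2694 CPM), cadherins (606.7 CPM), IgLON genes (1045 CPM) and calcium-binding proteins (6815 CPM), and the highest for meningeal and fibroblast genes (474.3 CPM). Lsamp (340.0 CPM) and Opcml (221 CPM) were lowest there and Rtl3 (0.284 CPM) was highest.

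Mouse 14 had the lowest summed level of mossy cell markers in hippocampus (96.17 CPM), the highest of astrocyte genes in hippocampus (9655 CPM), the highest of layer 6 genes in cortex (601.5 CPM) and the highest Iglon5 in cortex (37.8 CPM). The hippocampus of mouse 74 had the highest summed level of pituitary genes (3912 CPM), that of mouse 33 the highest of metabotropic glutamate receptors (714.1 CPM), and that of mouse 32 the lowest Hc (0.115 CPM).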

How the results depend on the processing

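The main counts were 574 genes higher in hippocampus and 564 higher in cortex. They became 306 and 318 with at least 10 counts required in every PBS library, 220 and 176 when tested against a fold change of 2 (glmTreat), and 2613 and 2891 with no fold threshold. They stayed within 1.5 times under 6 other settings of test, scaling, filter and libraries (503 to 711 and 502 to 631). Leaving out 1 mouse gave 514 to 653 and 498 to 586. In control IgG mice leaving out 1 mouse gave 276 to 504 and 296 to 386 against 415 and 361, with 276 without mouse 15, 278 without mouse 10 and 504 without mouse 37. The interaction with treatment called 0 genes in edgeR, also without any 1 mouse, and 4 in DESeq2. Of the named genes under each setting, 2309 values kept direction and side of the threshold, 167 lost the call, 32 gained it and 13 changed sign.

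Without the animal as a replicate block the counts were 565 and 547 in PBS mice, 434 and 348 in control IgG mice and 0 for the interaction. Among named genes, Ccn3, Etv1, Nr4a2, Zbtb18, Cdh13, Ak7, Foxj1, Slc17a6 and Alox12e did not pass without the pairing, and Rarres2 and Prl passed. The block changed no other call among the named genes.

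Log2 fold changes near 0 changed sign for 7 genes that did not pass in the main test. Fosl2 was -0.059 without the replicate block and -0.059 with all 27 libraries, and Itm2a was 0.002 with 10 counts in every library. Leaving out 1 mouse gave -0.139 (without mouse 74) to 0.421 for Nr4a3, -0.140 (without mouse 74) to 0.269 for Fosl2, -0.068 to 0.017 (without mouse 38) for Glul, -0.084 to 0.081 for Itm2a (above 0 without mouse 33, 38 or 74), -0.062 (without mouse 74) to 0.208 for Ttr, -0.162 to 0.00 (without mouse 74) for Ntng1 and -0.286 to 0.109 for Hba-a1 (above 0 without mouse 38 or 74). Nr4a3 passed with no count filter (0.21, adjusted p = 0.0126 in edgeR). The cause was not tested. Of the called genes, 219 of the 574 and 197 of the 564 were below 1 CPM in the higher tissue. The part of sequencing depth in these was not tested.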

Other observations

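Among the 5 genes called in PBS mice with the smallest unadjusted interaction p, 3 had a log2 fold change, hippocampus over cortex, of opposite sign in control IgG mice. The genes were chosen for the difference between the groups, which favours opposite signs, and 534 of all 564 genes higher in cortex in PBS mice kept their direction. Alox12e, a lipoxygenase gene, was -1.29 ± 0.34 in PBS and 1.40 ± 0.38 in control IgG mice, and Hc, which encodes complement component C5, -2.14 ± 0.36 and 1.46 ± 0.64. Tmem40, a membrane protein gene, was -1.56 ± 0.25 and 0.39 ± 0.33. In PBS mice Alox12e was read at 0.125 to 1.21 CPM in cortex and 0 to 0.528 CPM in hippocampus, Hc at 0.344 to 1.9 CPM in cortex and 0.115 to 0.282 CPM in hippocampus and Tmem40 at 1.01 to 1.39 CPM in cortex and 0.188 to 0.623 CPM in hippocampus. The interaction of each had an adjusted p of 0.53 in edgeR, and in DESeq2 that of Hc had an adjusted p of 0.0283.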
